A study of Homo sapiens with 2 samples.

Results

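The transcripts described here are those of the 7 cyclin-dependent kinase (CDK) inhibitors of the CIP/KIP and INK4 families, chosen by name from the 58735 genes listed for each library. CDKN1A (p21), CDKN1B (p27) and CDKN1C (p57) make up the CIP/KIP family, and CDKN2A (p16 and ARF), CDKN2B (p15), CDKN2C (p18) and CDKN2D (p19) the INK4 family. The choice used names and family membership. Each of the 7 symbols matched 1 gene identifier. The cells were BT549, a mesenchymal, triple-negative breast cancer line. Both cultures were treated with Wnt3a for 2 h. The scrambled library came from cells with a control short hairpin RNA and the shSIK2 library from cells with a hairpin against SIK2, a salt-inducible kinase; which hairpin sequence was used, and whether the cells were 1 clone or a pool, is not stated in the labels. With 1 library per group there is no spread between replicates and no p-value, and each interval below is a 95% interval that covers counting error only. The comparison asks how these brakes of the cell cycle stand in Wnt3a-treated cells with less SIK2.

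CDK inhibitors set the brake on the passage from G1 into S phase. INK4 proteins bind CDK4 and CDK6 and keep them from D-type cyclins, so that the retinoblastoma protein stays unphosphorylated and holds E2F factors back. CIP/KIP proteins bind cyclin-CDK complexes more widely, with cyclin E-CDK2 as the chief target, and p21 also binds PCNA, the sliding clamp of DNA replication. CDKN2B is known as a target of TGF-beta signalling, CDKN2A and CDKN2B as targets of Polycomb silencing, and CDKN1C as an imprinted gene expressed from the maternal chromosome.

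The upstream sequences of the inhibitor with the highest ratio between the libraries, CDKN1A, and of the one with the lowest, CDKN2B, are shown from RefSeq (GRCh38.p14), from 250 to 59 bases before the start that RefSeq gives. That start lies inside the longer GENCODE span of CDKN1A given below and, for CDKN2B, a little inside its GENCODE end. The positions are chr6:36678464-36678655 on the plus strand and chr9:22009364-22009555 on the minus strand. Capitals mark a GC box (GGGCGG on either strand), the element bound by SP1 and KLF factors.
CDKN1A: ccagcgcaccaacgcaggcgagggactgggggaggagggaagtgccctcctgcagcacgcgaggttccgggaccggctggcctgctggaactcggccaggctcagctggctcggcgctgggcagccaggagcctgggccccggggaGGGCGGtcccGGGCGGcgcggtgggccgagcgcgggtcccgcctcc
CDKN2B: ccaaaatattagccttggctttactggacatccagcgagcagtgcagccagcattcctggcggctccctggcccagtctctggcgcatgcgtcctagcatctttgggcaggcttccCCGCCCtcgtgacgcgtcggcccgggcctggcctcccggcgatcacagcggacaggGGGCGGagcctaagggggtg
Each stretch held 2 GC boxes, which do not overlap any other motif searched, and 33.4% of all 35116 annotated promoters held at least 1 over the same stretch. Neither stretch held the MYC E-box CACGTG, the cAMP response element TGACGTCA, the heat shock element GAANNTTC, the SMAD box CAGAC or the E2F site TTCCCGCC, searched on both strands. Those motifs were found in 4.18%, 0.81%, 4.44%, 31.5% and 2.00% of promoters, in that order. The 2 inhibitors furthest apart in ratio thus held the same motifs of this set in this window. The inhibitors other than CDKN1C were searched in the same way. CDKN1B held 1 GC box, CDKN2D 1 GC box and 1 heat shock element, and CDKN2A no GC box in either of its promoters but 1 SMAD box in one of them. The 3 annotated promoters of CDKN2C held 3 GC boxes and 1 E2F site in one of them and 1 E-box in each of the other two, 1 of these with a SMAD box.

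Depth was similar, at 18019225 gene reads for scrambled and 16347399 for shSIK2. SIK2, the target of the hairpin, was at 7.80 FPKM (fragments per kilobase of exon, as deposited) in scrambled cells and 3.56 FPKM in shSIK2 cells, or 2.19-fold lower (1.99 to 2.42). Mesenchymal markers were present, with 7 of 7 measured and VIM, an intermediate filament protein, at 260.3 and 283.3 FPKM, scrambled first. Not all were alike between the libraries: CDH2 was at 2.44 and 0.40 FPKM, and SPARC at 38.1 and 188.6 FPKM. CDH2 was thus under 1 FPKM in shSIK2 cells. The luminal markers EPCAM and PGR had no reads in either library, and 6 of 7 luminal and epithelial markers stayed under 1 FPKM. GATA3, at 11.5 and 18.6 FPKM, was the exception. Of 8 leukocyte and 7 endothelial and adipocyte markers none reached 1 FPKM; the lists summed to 0.61 and 0.77 FPKM and to 0.16 and 0.098 FPKM, and PTPRC, the pan-leukocyte marker, stood at 5 and 2 reads. The deposited values use the same divisor in both libraries, so a ratio of FPKM equals the ratio of reads and is not corrected for the difference in totals. With equal totals log2 ratios gain up to 0.14, and the median over measured genes is 0.03 in place of -0.11. SIK2 is then 1.99-fold lower. As deposited, 6.35% of measured genes had a ratio at least as low as that of SIK2. In bulk RNA a change in the share of cells that express a gene, such as cells in 1 phase of the cycle, and a change in RNA per cell cannot be told apart.

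All 7 inhibitors were measured, meaning at least 1 FPKM in the higher library. CDKN2A was the most abundant in both libraries and CDKN1C the least. In the scrambled library the order of levels was CDKN2A, CDKN2B, CDKN1B, CDKN2C, CDKN1A, CDKN2D and CDKN1C, and each stood above the next by more than counting error. The smallest such step was from CDKN2C to CDKN1A, at 1.27-fold (1.14 to 1.42). In the shSIK2 library CDKN1A had moved from the fifth place to the second, and CDKN2B from the second to the fifth. There CDKN2A exceeded CDKN1A by 1.23-fold (1.18 to 1.28), while CDKN1B and CDKN2C did not differ beyond counting error, at 1.06-fold (0.99 to 1.13). These levels are per length of all annotated exons of a gene, so a gene with many alternative exons, such as CDKN2A with 4329 bases, reads low for any 1 transcript form.

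**Figure D1:**
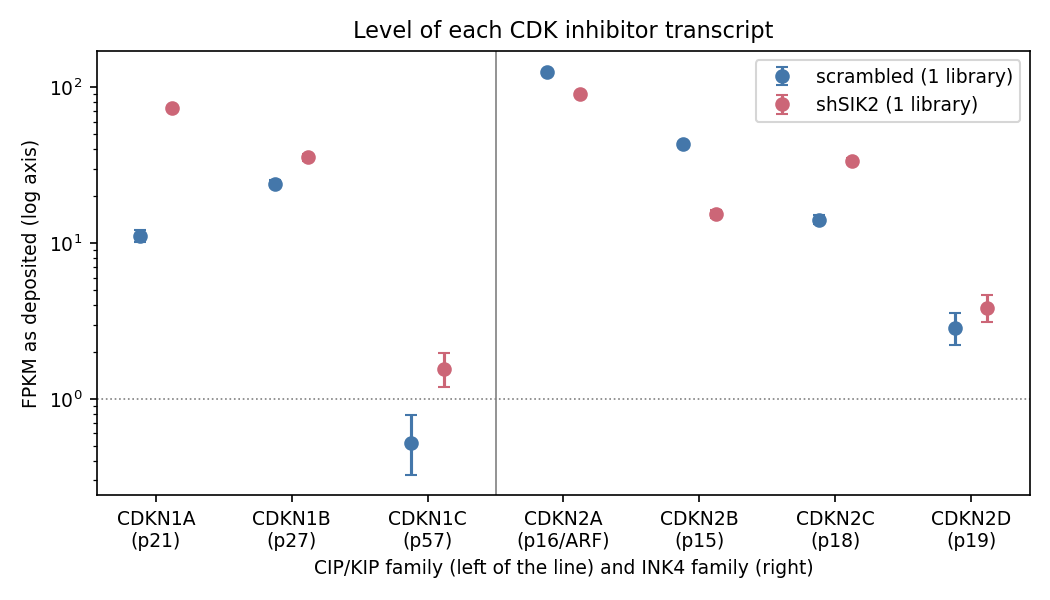
Level of the 7 CDK inhibitor transcripts in each library, in FPKM as deposited on a log axis; points are single libraries, bars are 95% Poisson counting intervals, and the dotted line marks 1 FPKM. CDKN1A stood at 11.1 FPKM in the scrambled and 73.9 FPKM in the shSIK2 library, while CDKN2B stood at 43.0 and 15.3 FPKM.

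The CIP/KIP inhibitors were all higher in the shSIK2 library. CDKN1A, which encodes p21 (ENSG00000124762, GRCh38 chromosome 6, 36676460 to 36687339, plus strand), was at 11.1 FPKM in scrambled cells and at 73.9 FPKM in shSIK2 cells. Its reads were 581 and 3870, a 6.66-fold difference (6.10 to 7.28). On the log2 scale, with 0.1 FPKM added to each value, the ratio was 2.72, and 227 of 12866 measured genes (1.76%) had a ratio at least as high. In level it went from percentile 67.5 of the measured genes to percentile 96.8. DINOL, an RNA from the opposite strand, overlaps 146 of its 3050 exon bases and had no reads in either library.

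CDKN1B, which encodes p27 (ENSG00000111276, chromosome 12, 12715058 to 12722371, plus strand), was higher by a smaller amount. It was at 24.1 FPKM in scrambled cells and at 35.5 FPKM in shSIK2 cells, with 1162 and 1711 reads, 1.47-fold (1.37 to 1.59). Its log2 ratio of 0.56 was equalled or exceeded by 20.6% of measured genes. The p27 transcript was thus the more abundant of the pair in the scrambled library, where p21 per p27 was 0.46, and the less abundant in the shSIK2 library, where it was 2.08. An RNA within its intron, AC008115.3, had 12 and 36 reads and shares no exon base with it.

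CDKN1C, which encodes p57 (ENSG00000129757, chromosome 11, 2883213 to 2885773, minus strand), was scarce. It was at 0.52 FPKM in scrambled cells and at 1.55 FPKM in shSIK2 cells. The reads were 22 and 66, a 3-fold difference with a wide interval (1.83 to 5.11). It passed the minimum of 1 FPKM through the shSIK2 library alone, and its log2 ratio of 1.42 became 0.75 with 1 FPKM added in place of 0.1 and 0.94 once a trend with GC content and exon length was removed.

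The INK4 inhibitors had no common direction: CDKN2A and CDKN2B were lower in the shSIK2 library, and CDKN2C and CDKN2D had more reads there. CDKN2A (ENSG00000147889, chromosome 9, 21967753 to 21995301, minus strand) encodes p16 and, from another first exon and in another reading frame, ARF, the partner of MDM2; the values are sums over both. It was at 124.5 FPKM in scrambled cells and at 90.7 FPKM in shSIK2 cells. With 9253 and 6742 reads the difference was 1.37-fold (1.33 to 1.42), or 1.25-fold at equal totals. The log2 ratio was -0.46 as deposited, and -0.35 once the median over measured genes was subtracted, and 28.1% of measured genes were at least as low. It shares 341 of its exon bases with the antisense RNA CDKN2B-AS1; with strand not given, reads there cannot be told apart.

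CDKN2B, which encodes p15 (ENSG00000147883, chromosome 9, 22002903 to 22009363, minus strand), was at 43.0 FPKM in scrambled cells and at 15.3 FPKM in shSIK2 cells. Its reads were 2995 and 1069, 2.80-fold lower in the shSIK2 library (2.61 to 3.01). The log2 ratio was -1.48, and 457 measured genes (3.55%) were at least as low. CDKN2B per CDKN2A, the latter summed over p16 and ARF, went from 0.35 to 0.17. The neighbouring genes thus differed unequally between the libraries. The pair resemble each other, and 31 stretches of 50 bases were common to their GENCODE release 29 transcripts, which is 0.68% of those of CDKN2A and 0.77% of those of CDKN2B.

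CDKN2C, which encodes p18 (ENSG00000123080, chromosome 1, 50960745 to 50974633, plus strand), differed in the opposite direction. It was at 14.1 FPKM in scrambled cells and at 33.5 FPKM in shSIK2 cells, with 804 and 1909 reads, 2.37-fold higher (2.19 to 2.58). Its log2 ratio was 1.24, which 8.0% of measured genes equalled or exceeded. CDKN2D, which encodes p19 (ENSG00000129355, chromosome 19, 10566462 to 10569059, minus strand), stood at 2.83 and 3.84 FPKM, scrambled first. Its 73 and 99 reads give a 1.36-fold difference whose interval, not corrected for totals, just includes no difference (0.99 to 1.86). At equal totals it was 1.49-fold higher.

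Counted at 2-fold on the log2 scale, 3 of the 7 inhibitors were higher in the shSIK2 library (CDKN1A, CDKN1C and CDKN2C), 1 was lower (CDKN2B) and 3 lay between. Among all measured genes 11% were at least 2-fold higher and 8.28% at least 2-fold lower (19.3% in either direction), or 13.4% and 6.04% at equal totals. The median log2 ratio was 1.42 for the CIP/KIP family, which is the value of the scarce CDKN1C itself, -0.01 for the INK4 family (0.12 at equal totals) and 0.56 for the 7 genes together, against -0.11 for all measured genes. The same 4 genes passed 2-fold at equal totals.

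**Figure D2:**
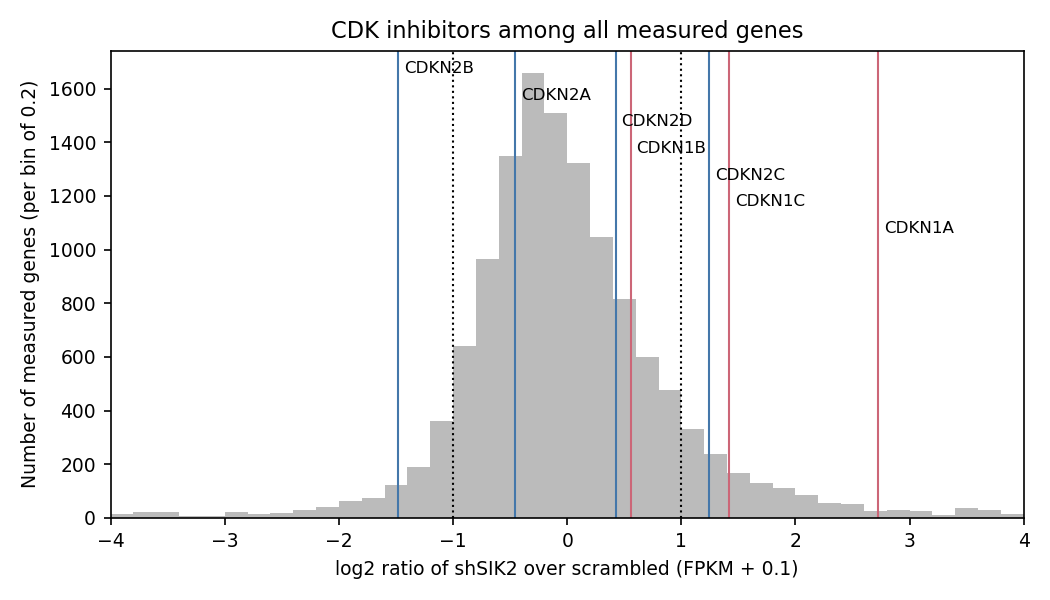
Histogram of the log2 ratio of shSIK2 over scrambled for the 12866 measured genes in bins of 0.2, shown from -4 to 4 (138 genes lie outside), with red lines at the CIP/KIP and blue lines at the INK4 inhibitors; dotted lines mark 2-fold. CDKN1A at 2.72 stands in the upper tail, CDKN2B at -1.48 in the lower tail, and CDKN2A at -0.46 near the bulk.

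The make-up of the inhibitor transcripts differed between the libraries more than their total. The summed level was 220.2 FPKM in scrambled cells and 254.4 FPKM in shSIK2 cells. INK4 transcripts summed to 184.5 and 143.5 FPKM, and CIP/KIP transcripts to 35.7 and 110.9 FPKM. CIP/KIP transcripts therefore made up 16.2% of the inhibitor transcripts in scrambled cells and 43.6% in shSIK2 cells. CDKN1A alone accounted for 5.04% and 29.1%, and CDKN2B for 19.5% and 6.03%. Set against their kinases, INK4 transcripts stood at 4.26 per CDK4 and CDK6 transcript in scrambled cells and at 4.10 in shSIK2 cells, with CDK4 and CDK6 summing to 43.3 and 35.0 FPKM. The INK4 sums include the ARF part of CDKN2A, which cannot be separated from p16. The INK4 ratio is therefore not one of CDK4 and CDK6 binders alone. CIP/KIP transcripts per CDK2 transcript went from 3.60 to 7.50. These are ratios of transcript levels, and protein was not measured.

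**Figure D3:**
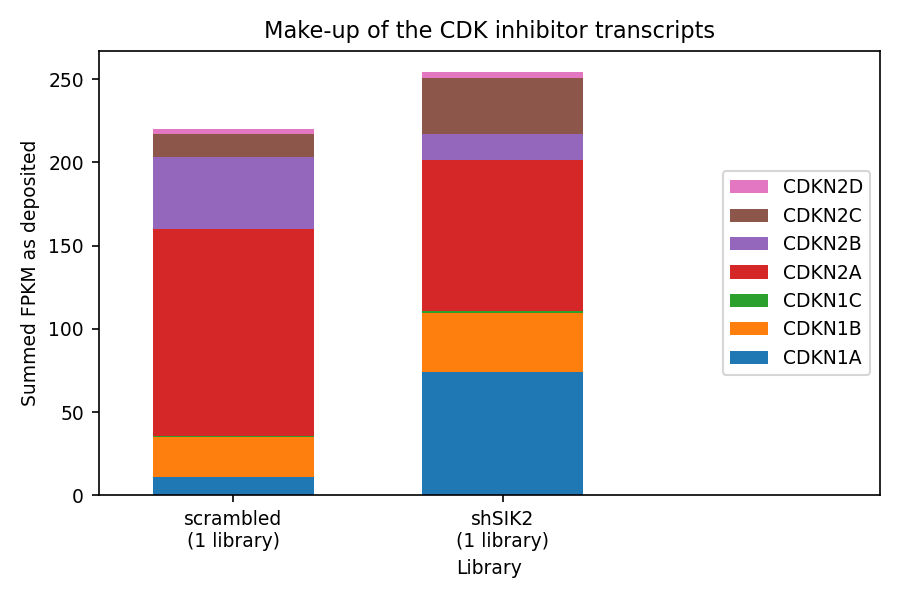
Summed FPKM of the 7 CDK inhibitors in each library, stacked by gene (1 library per bar, no error bars). The bar grows from 220.2 to 254.4 FPKM, with CDKN1A the widest gain and CDKN2B and CDKN2A smaller in the shSIK2 library.

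Most of the kinases and cyclins that the inhibitors act on lay within 2-fold. Of 15 listed genes 14 were measured, with 1 at least 2-fold higher, 3 lower (1 at equal totals) and a median log2 ratio of -0.05. CDK4 stood at 34.7 and 30.8 FPKM, 1.13-fold lower in the shSIK2 library (1.06 to 1.21), or 1.02-fold lower at equal totals. CDK6 was 2.04-fold lower (1.88 to 2.21), or 1.85-fold at equal totals. CDK2, the kinase held by p21 and p27, was 1.49-fold higher (1.35 to 1.65). Cyclin D1 (CCND1) was 1.37-fold higher (1.30 to 1.44), cyclin E1 (CCNE1) 1.69-fold (1.46 to 1.97) and cyclin E2 (CCNE2) 2.36-fold (1.92 to 2.91). The lower members beside CDK6 were CCNA1, a cyclin A, and MNAT1, a subunit of the CDK-activating kinase, at 2.96-fold (1.82 to 4.97) and 2.07-fold (1.86 to 2.31). CCNA1, at 1.65 and 0.56 FPKM, passed the minimum through the scrambled library alone.

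Downstream of the inhibitors, RB1, the retinoblastoma gene, stood at 3.75 and 4.27 FPKM, 1.14-fold higher (0.997 to 1.30), or 1.26-fold at equal totals. E2F1, an activating E2F, was 2.80-fold higher (2.52 to 3.11). Of the 13 RB and E2F genes it was the 1 at least 2-fold higher (11% of all measured genes were). E2F7 and E2F5, of the repressing group, were 2.60-fold (2.23 to 3.05) and 2.16-fold (1.92 to 2.43) lower (8.28% of all were past 2-fold). At equal totals 2 were higher and 1 lower, with E2F5 at 1.96-fold. The median of that list was -0.28. Both kinds of E2F were mixed: the activating E2F2 was 1.93-fold higher (1.61 to 2.31) and E2F3 1.52-fold lower (1.40 to 1.65). E2F8, of the repressing group, had 124 and 143 reads, scrambled first. Replication genes had a median of 0.31: 15 of 18 had more reads in the shSIK2 library, against 43.6% of all measured genes. Of them 1, the licensing factor CDT1, was at least 2-fold higher, or 4 at equal totals (11% and 13.4% of all). Mitosis genes had a median of -0.30, with 13 of 18 having fewer reads, against 55.9% of all measured genes. CENPA, the centromeric histone, was the 1 at least 2-fold lower, or 0 at equal totals (8.28% and 6.04% of all).

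Genes that govern the turnover of CIP/KIP proteins were divided. SKP2, the F-box protein that targets p27 for degradation, was 1.47-fold higher (1.28 to 1.68), while its cofactor CKS1B was 2.29-fold lower (2.11 to 2.49). PCNA, the partner of p21, was 2.17-fold higher (2.02 to 2.33). CKS1B and PCNA were the 2 of 17 members past 2-fold (19.3% of all measured genes were), and the median was -0.09.

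**Figure D4:**
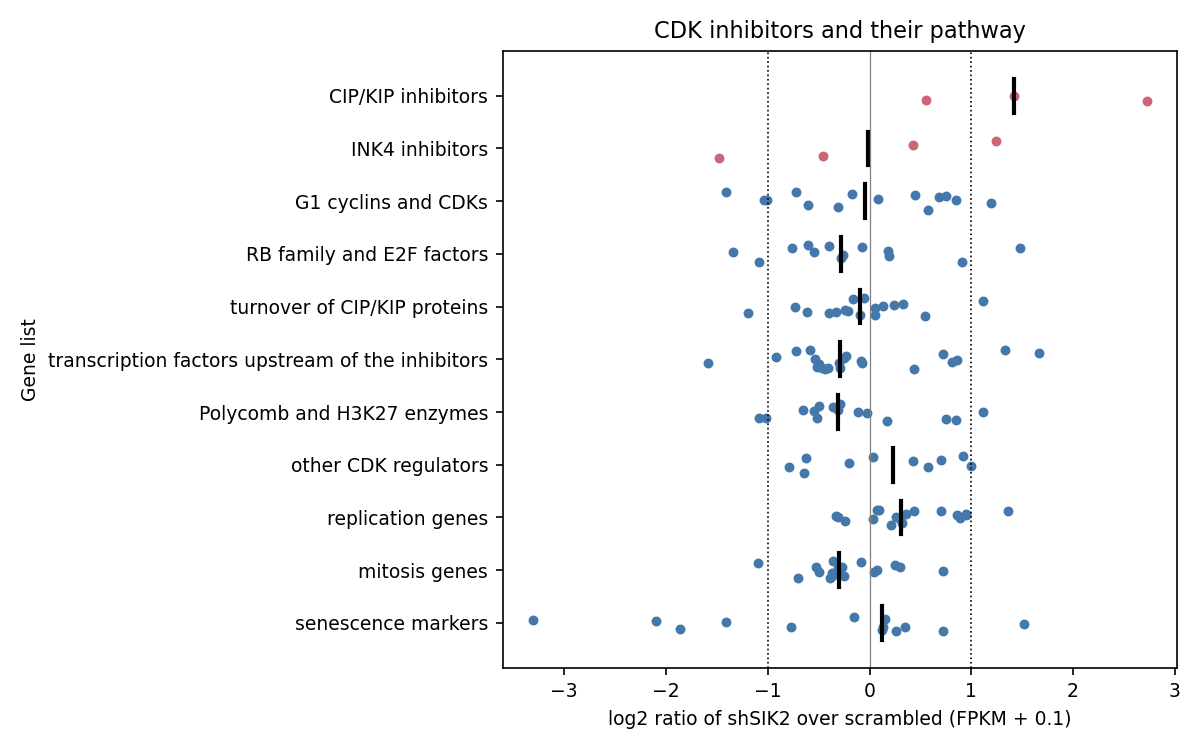
Log2 ratio of shSIK2 over scrambled for each measured member of the inhibitor families (red) and of pathway lists (blue); 1 point is 1 gene, black bars are list medians, dotted lines mark 2-fold, and the vertical spread within a row carries no meaning. CIP/KIP inhibitors lie at 0.56, 1.42 and 2.72, to the right of zero, while the INK4 inhibitors spread from -1.48 to 1.24.

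Transcription factors known to act on the inhibitor genes gave a median of -0.29 over 22 measured of 23. MYC, a repressor of CDKN1A and CDKN2B, was 1.41-fold lower (1.35 to 1.46), and KLF4, an activator of CDKN1A, 3.04-fold lower (2.75 to 3.36). EGR1, an immediate early factor, and ID1, an inhibitor of helix-loop-helix factors and a repressor of CDKN2A, were 3.23-fold (2.78 to 3.77) and 2.52-fold (2.44 to 2.62) higher. KLF4, EGR1 and ID1 were the 3 measured members past 2-fold (19.3% of all measured genes were). TP73, a transcription factor that acts on CDKN1A, was below 1 FPKM with 7 and 83 reads, 11.9-fold higher (5.51 to 30.4). The list of Polycomb and H3K27 enzymes holds Polycomb subunits, which silence CDKN2A and CDKN2B, and the demethylases KDM6A and KDM6B, which remove the silencing mark. Of 15 members 11, both demethylases among them, had fewer reads in the shSIK2 library, against 55.9% of all measured genes. The median was -0.31. BMI1 and EZH2 were 2.14-fold (1.97 to 2.33) and 2.03-fold (1.87 to 2.19) lower, both short of 2-fold at equal totals, and CBX8 was 2.36-fold higher (1.65 to 3.44). CBX8, at 0.62 and 1.46 FPKM, passed the minimum through the shSIK2 library alone.

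Many, but not all, neighbours of CDKN2B on chromosome 9 were lower in the shSIK2 library. Within 1 Mb of the gene 14 others were measured, of which 6 were at least 2-fold lower (8.28% of all measured genes were) and 0 higher, with a median log2 ratio of -0.94. The 6 were the interferon genes IFNB1 and IFNE, the pseudogene IFNWP19, MIR31HG, CDKN2A-DT and LINC01239. IFNB1 and IFNE, at 0.20 and 0.55 FPKM in shSIK2 cells, passed the minimum through the scrambled library alone, which favours a low ratio. LINC01239, with 178 and 30 reads, also passed it through the scrambled library alone. HACD4, CLIC4P1 and UBA52P6 had more reads in the shSIK2 library, with log2 ratios of 0.43, 0.49 and 0.18. MTAP, a methionine salvage enzyme, was 1.56-fold lower (1.47 to 1.64), KLHL9, a ubiquitin ligase adaptor, 1.97-fold (1.84 to 2.11) and the RNA MIR31HG 3.40-fold (2.37 to 4.97). CDKN2B-AS1, the antisense RNA that spans CDKN2B, had 149 and 140 reads (1.06-fold, 0.84 to 1.35). The p15 ratio thus lay below that of MTAP and CDKN2A and above that of MIR31HG. IFNB1, the interferon beta gene further along the arm, had 405 and 3 reads, 135-fold lower (45.9 to 657).

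CDKN1C lies in an imprinted domain of chromosome 11. Its neighbours SLC22A18 and PHLDA2, which are also expressed from the maternal chromosome, had more reads in the shSIK2 library as well. Like CDKN1C, both were under 1 FPKM in scrambled cells (0.975 and 0.854 FPKM) and passed the minimum through the shSIK2 library alone, which favours a high ratio. Within 1 Mb of CDKN1C 15 genes were measured, and their median log2 ratio was 0.12. Of these 3 passed 2-fold upwards and 1 downwards, against 11% and 8.28% of all measured genes. SLC22A18, a membrane transporter gene 13.9 kb away, had 89 and 312 reads, 3.51-fold higher (2.76 to 4.49). PHLDA2, a growth-restricting placental gene, had 14 and 99 reads, 7.07-fold higher (4.02 to 13.4). The 4 other measured genes on the list of that region, NAP1L4, CARS, CD81 and TSSC4, lay between -0.15 and 0.12 on the log2 scale. KCNQ1OT1, the long RNA that silences the domain on the paternal chromosome, was below 1 FPKM with 37 and 116 reads, 3.14-fold higher (2.15 to 4.67), and H19, IGF2 and KCNQ1 had no reads in either library. Imprinting itself cannot be read from these values.

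**Figure D5:**
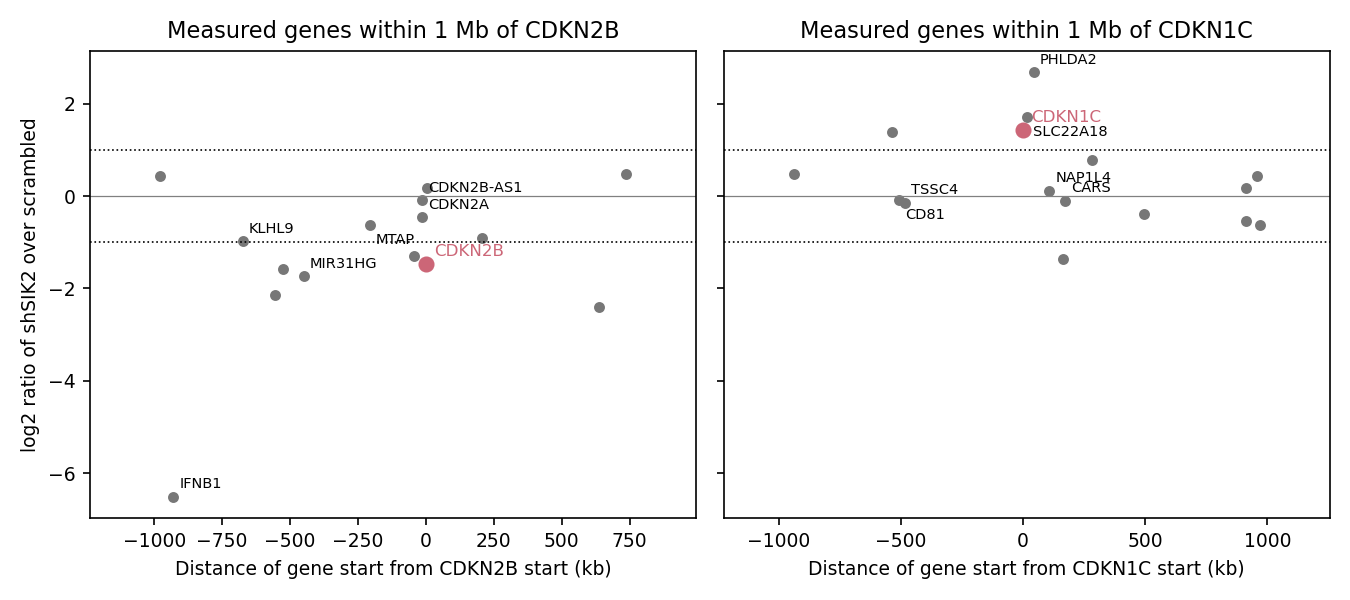
Log2 ratio of shSIK2 over scrambled for each measured gene within 1 Mb of CDKN2B (left) and of CDKN1C (right), against the distance of its start from that of the named gene in kb, positive towards the end of the chromosome's numbering; points are genes and dotted lines mark 2-fold. Around CDKN2B 6 of 14 genes lie at or below -1, and beside CDKN1C the points of SLC22A18 and PHLDA2 stand at 1.71 and 2.69.

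The genes around the other inhibitors differed less than 2-fold in most cases. Within 1 Mb of CDKN1A 16 genes were measured, 15 of them within 2-fold, with a median of -0.18, and its nearest measured neighbours, the splicing factor SRSF3 and the isomerase PPIL1, stood at -0.62 and -0.66. Around CDKN2C the 6 measured genes had a median of -0.56 and none was past 2-fold, against 1.24 for CDKN2C. Around CDKN1B, at 0.56, the 14 measured genes had a median of 0.65 and 5 were at least 2-fold higher (11% of all measured genes were). Of those, AC007537.1, LOH12CR2 and the intronic AC008115.3 had few reads (5 and 22, 9 and 33, 12 and 36). APOLD1 and FAM234B had 158 and 391 reads and 77 and 191 reads. AC007537.1, LOH12CR2 and FAM234B passed the minimum through the shSIK2 library alone, which favours a high ratio. Around CDKN2D, at 0.43, the 51 measured genes had a median of 0.25. Of them 7 were at least 2-fold higher and 2 lower (11% and 8.28% of all measured genes were). Some of these had few reads, such as AC011461.1 (2 and 10), AC011472.4 (3 and 9) and, among the lower, AC011442.1 (11 and 0).

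With 2 libraries the pattern of a gene is 1 ratio, and likeness is the absolute difference of log2 ratios. Among the pathway genes CDKN1A was nearest to PHLDA2 (difference 0.04), CDKN1B to SKP2 (0.01), CDKN1C to E2F1 (0.06), and CDKN2C to CCNE2 (0.05). CDKN2A was nearest to ETS2, an ETS factor (0.0075), CDKN2B to CCNA1 (0.07) and CDKN2D to CDK2AP1, a CDK2-associated protein (0.00052).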

How the data were processed

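RNA sequencing was done on 1 scrambled and 1 shSIK2 library of BT549 cells, grouped by their titles. Trizol RNA went into standard Illumina libraries, per the labels' protocols. The submitters' processing notes name HISAT2 2.0.5 and hg18; no counter, annotation, strand setting or FPKM formula is stated in these sources. The deposited values are FPKM, per the file headers.

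All 58735 identifiers matched GENCODE release 29 (GRCh38), which gave symbols, exon lengths, GC content and coordinates; hg18 is another build, so the one used for alignment is unsettled. FPKM times exon length gave whole multiples of 1 step for 100% of the 21622 and 22790 values above 0 (tolerance 0.01 reads), taken as reads. Log2 ratios are of FPKM plus a pseudocount of 0.1, shSIK2 over scrambled, which understates low genes. Folds are ratios of reads, and their exact 95% intervals are Clopper-Pearson intervals given the summed reads; without molecular identifiers, reads may stem from the same molecule, so counting error alone is covered. A gene was measured at 1 FPKM in the higher library and counted at 2-fold. No test was possible with 1 library per group. Named were the 7 inhibitors, SIK2, direct partners, the gene nearest in ratio, and up to 4 genes of each pathway list with the largest ratio; some so picked, and 1 of the pathway lists, are not reported here, and other genes were named after their values were seen. The members and lists were chosen with earlier results of these data known. Alternatives were equal totals, a trimmed mean of log ratios, other pseudocounts and minimums, and removal of a trend fitted as medians over 20 GC and 20 length bins. Scripts were tested on simulated data. Python 3.11.15 was used with scipy 1.17.1 for intervals and pandas 2.3.3, numpy 2.4.6 and matplotlib 3.10.9 otherwise.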

Additional observations from a re-analysis of the deposited data

How the results depend on the processing

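No paired analysis was possible because each group holds 1 library, and none could be left out. Of the 47 values of the 7 inhibitors under other settings, 0 changed direction and 37 stayed within counting error. Both counts are partly fixed in advance. Settings that change only the minimum leave a value as it was, and another pseudocount cannot change its direction. At equal totals the log2 ratios were 2.86 for CDKN1A, 0.70 for CDKN1B, -0.32 for CDKN2A, -1.34 for CDKN2B and 1.38 for CDKN2C. A trimmed mean of log ratios gave -0.41 for CDKN2A. With the GC and length trend removed they were 2.44 for CDKN1A, 0.67 for CDKN1B, -0.75 for CDKN2A and -1.36 for CDKN2B. CDKN1C fell short of 2-fold there and with a pseudocount of 1, and was left out with a minimum of 5 FPKM, as was CDKN2D, so 2 inhibitors in place of 3 were then 2-fold higher; 1 was lower under each setting. Counts over all genes moved with the pseudocount of 1 (760 higher, 621 lower), with no minimum (4008 and 2619) and with a minimum of 5 FPKM (430 and 551). Over the 12 pathway lists joined, 11 genes were higher and 22 lower as deposited, against 18 higher and 15 lower at equal totals. Lower thus no longer prevailed there. Among all measured genes the shares higher and lower were 11% and 8.28% as deposited, and 13.4% and 6.04% at equal totals. The joined lists gave 10 higher and 15 lower with the GC and length trend removed. They gave 7 higher with a minimum of 5 FPKM and 14 lower with the pseudocount of 1. GC-rich genes tended to have higher ratios (Spearman rho 0.34 over 10663 protein-coding genes, a description), and the cause was not tested. Depth limits CDKN1C and CDKN2D, at 22 to 99 reads.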

Other observations

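Transcripts often read together with p16 and p21 as marks of senescence were mixed. Of 16 listed genes 13 were measured, of which 1 was higher by 2-fold or more in shSIK2 cells and 4 were lower, and the median log2 ratio was 0.12. Among all measured genes 11% were higher and 8.28% lower by 2-fold or more. The secreted factors IL6, IGFBP3 and CXCL8 were 9.98-fold (8.87 to 11.3), 3.64-fold (3.46 to 3.82) and 2.66-fold (2.42 to 2.94) lower, and HMGA2, a chromatin protein, was 5.54-fold lower (4.29 to 7.26). HMGA2, at 1.47 and 0.26 FPKM, passed the minimum through the scrambled library alone, which favours a low ratio. TNFRSF10D, a decoy receptor for TRAIL, was 2.90-fold higher (2.55 to 3.30). LMNB1, the nuclear lamin that is lost in senescent cells, stood at 15.6 and 17.1 FPKM, scrambled first.

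Other regulators of CDKs outside the inhibitor families showed no gene past 2-fold among 10 measured, 2 at equal totals, with a median of 0.23. Of all measured genes 19.3% were past 2-fold as deposited. CDK2AP2, a relative of the CDK2-associated protein CDK2AP1, was 2-fold higher in reads (1.78 to 2.24). CABLES2 and CABLES1, scaffold proteins of CDKs, differed in opposite directions, 1.93-fold higher (1.60 to 2.34) and 1.75-fold lower (1.54 to 2.00). CDKN3, a phosphatase that shares the gene name but not the fold of the inhibitors, was 1.57-fold lower (1.41 to 1.76).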
